A study of Mus musculus with 14 samples.

Results

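The AP-1 transcription factors Fos, Fosb, Fosl1, Fosl2, Jun, Junb and Jund were followed through the mammary glands of estrogen-deprived mice 3 h after estradiol, after an estrogen receptor blocker, or after both. The genes were found by symbol: every probe set whose single annotated symbol is one of these 7 names was taken, which gave 11 of the 45037 probe sets tested and 7 of the 18193 genes they name. Each gene is given by its brightest probe set on average across the 14 arrays, and the other 4 probe sets stand beside it. No expression value entered the choice of the genes, although it was made with earlier results of these data known.

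AP-1 is a family of leucine zipper proteins that bind DNA only as dimers: Jun proteins pair with each other or with a Fos protein, whereas Fos proteins need a Jun partner. Several members are immediate-early genes, whose RNA appears within minutes of a growth factor or stress signal and decays soon after, and phosphorylation by MAP kinases adjusts the proteins. Fos and Jun are long known as estrogen-responsive genes of the uterus, and the estrogen receptor can also act by binding to AP-1 proteins that already sit on DNA.

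All mice were ovariectomized female C57BL/6 animals, 11 to 12 weeks old on arrival and given a week to settle, with the ovaries removed 7 days before treatment and no added estrogen in the controls. The 10 groups received vehicle, 17-beta-estradiol (E2), one of the blockers acolbifene (EM-652.HCl), fulvestrant, raloxifene or tamoxifen (as the citrate), or E2 together with one of these. There were 2 arrays for each of vehicle, E2, acolbifene and E2+acolbifene and 1 for each of the other 6 groups. The glands of the 8 mice of a group were pooled, per the design text, and the raw-file names of the 2 arrays of a group share their sample part. As far as the labels go, the 2 arrays are thus repeat measurements of 1 pool, and every SE and p-value below measures technical spread between arrays and not the spread between mice. The sample part of the raloxifene name is also that of the E2+acolbifene arrays. Whether this is a reused code or a mislabelled array cannot be told from the labels, and the raloxifene values below carry this doubt. The doses of the blockers were not known here, so their values stand side by side and no test compares one blocker with another.

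Whole glands were measured, in which fewer cells of a type and less RNA per cell cannot be told apart. All 7 adipocyte, 6 luminal epithelial and 6 fibroblast markers measured lay above the dim level, the 40th percentile of mean level (6.65 on the log2 scale). Array medians lay between 7.16 and 7.23. Spiked-in hybridization controls averaged 9.57 to 9.81 for E2 and for the 6 unreplicated groups, and 10.00 to 10.18 for the 3 other groups. For the Actb control the 3' probe set exceeded the 5' one by 0.24 to 0.28 in vehicle, 0.41 to 0.43 in E2 and 0.30 to 0.31 in E2+acolbifene. Of 12 skeletal muscle markers 11 lay above the dim level, and the log2 of their summed level was 13.42 to 13.44 in vehicle, 12.71 to 14.03 in E2 and 14.07 to 14.18 in E2+acolbifene. Their median, relative to vehicle, was -0.82 on E2 array 1, 0.50 on E2 array 2 and 0.69 to 0.75 on the E2+acolbifene arrays. The median of 8 basal epithelial and smooth muscle markers was 0.33 to 0.36 in E2 and 0.17 to 0.21 in E2+acolbifene, that of 6 lymphocyte markers -0.32 to -0.25 and -0.39 to -0.33, that of 8 keratinocyte markers 0.22 to 0.27 and 0.23 to 0.29, and that of 6 macrophage markers -0.20 and -0.19 to -0.17, in the same order. Only 5 of the 8 keratinocyte markers and 7 of the 8 basal epithelial and smooth muscle markers lay above the dim level. Raw-file names carry a code of unstated meaning, R136 on E2 array 1 and the unreplicated arrays and R137 on the other 7. The code was tried as a term in the model, and the part of the other values in the results was not tested.

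The promoters of the 3 members that rose after E2 are shown with that of Jun, which did not pass the test, because transcription of these genes starts just after them. Each is the 250 bases before the gene's start on its own strand, 5' to 3', from RefSeq on mouse assembly GRCm38.p6. They are Fos at chr12:85473640-85473889 (plus strand), Fosl2 at chr5:32136222-32136471 (plus strand), Junb at chr8:84978749-84978998 (minus strand) and Jun at chr4:95052223-95052472 (minus strand). Capitals mark matches, on either strand, to TGACG, the core of the cyclic AMP response element, and to TATAA, the core of the TATA box.
Fos: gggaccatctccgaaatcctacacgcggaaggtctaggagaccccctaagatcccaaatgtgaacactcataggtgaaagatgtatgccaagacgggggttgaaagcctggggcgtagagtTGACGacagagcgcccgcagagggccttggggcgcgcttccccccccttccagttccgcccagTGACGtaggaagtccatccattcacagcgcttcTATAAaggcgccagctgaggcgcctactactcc
Fosl2: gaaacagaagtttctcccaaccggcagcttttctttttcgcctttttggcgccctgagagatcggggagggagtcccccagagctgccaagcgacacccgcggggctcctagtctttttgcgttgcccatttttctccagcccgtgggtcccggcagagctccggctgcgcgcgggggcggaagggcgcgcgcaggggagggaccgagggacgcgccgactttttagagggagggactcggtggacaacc
Junb: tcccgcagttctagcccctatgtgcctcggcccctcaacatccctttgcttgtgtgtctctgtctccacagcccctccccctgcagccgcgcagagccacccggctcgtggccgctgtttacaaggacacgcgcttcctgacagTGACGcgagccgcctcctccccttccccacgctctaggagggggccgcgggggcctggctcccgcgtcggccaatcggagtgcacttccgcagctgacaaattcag
Jun: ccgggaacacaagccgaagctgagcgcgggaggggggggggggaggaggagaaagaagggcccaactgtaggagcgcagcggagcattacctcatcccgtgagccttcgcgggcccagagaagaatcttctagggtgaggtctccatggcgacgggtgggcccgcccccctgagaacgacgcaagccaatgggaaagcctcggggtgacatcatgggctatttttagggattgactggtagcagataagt

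Of the 7 members, 6 had a promoter in the RefSeq table. Fos held TGACG at -129 to -125 and at -66 to -62 relative to its start, and TATAA at -33 to -29. Junb held TGACG at -106 to -102, and Fosb, not printed, held it at -60 to -56. Over all 32851 promoter stretches of this length, 17.8% held TGACG and 22.8% held TATAA. None of the 6 held TGANTCA, the AP-1 site itself (6.75% of all stretches), TGACGTCA, the full cyclic AMP response element, which contains TGACG (1.55%), the full estrogen response element (0.0639%) or a CArG box, the site of serum response factor (1.47%). GGTCA, one arm of the estrogen response element, was in Fosb and Jund (35.2% of all stretches), and GGGCGG, the GC box, which was left in lower case, was in Fos, Fosb, Fosl2 and Jun (32.7%). A match, or the lack of one, describes these exact letters in this window only, and variant or more distant sites were not searched. Jun, for instance, holds TGACATCA, a stretch close to TGACGTCA that none of these patterns covers.

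E2 raised 3 of the 7 members against vehicle, Junb, Fosl2 and Fos, in that order of size, and lowered none. Over all probe sets, 2.07% were called higher in this comparison (limma on 8 arrays, Benjamini-Hochberg adjusted p under 0.05). Jun, Jund, Fosb and Fosl1 did not pass. Arrays of the 2 groups did not overlap for 6 of the 7 members, Fosl1 being the exception, with E2 the higher in each. Of all probe sets 52.1% did not overlap, and 22% had both E2 arrays above both vehicle arrays. The median difference over the 7 members was 0.25 log2, and that over all probe sets was -0.02.

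Junb is an AP-1 subunit that dimerizes with Fos proteins and, against Jun, often acts as a brake on AP-1 activity. Its level was 8.49 and 8.62 on the vehicle arrays and 9.61 and 9.55 on the E2 arrays. The E2 arrays lay above both vehicle arrays by more than the gap within either pair. The log2 difference was 1.02 ± 0.10 (SE, 2 arrays a group), 2.03-fold, with a limma adjusted p of 0.000268.

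Fosl2, also known as Fra-2, is a Fos-family subunit without the strong transactivation domain of Fos. At its brighter probe set the level was 8.95 and 9.12 with vehicle and 9.99 and 9.92 with E2, again with no overlap. The log2 difference was 0.92 ± 0.11 (SE, 2 arrays a group), 1.90-fold, with a limma adjusted p of 0.00097. The second Fosl2 probe set went the other way: 8.05 and 7.94 with vehicle and 7.86 and 7.84 with E2, a log2 difference of -0.15 that did not pass (limma adjusted p = 0.394). The rise of Fosl2 therefore stands on 1 of its 2 probe sets, the brighter, and which part of the transcript each reads was not tested.

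Fos, the founding member and the usual partner of Jun, measured 10.49 and 10.46 with vehicle and 10.88 and 11.10 with E2. Both E2 arrays were above both vehicle arrays, but they lay 0.23 apart, the widest gap of Fos in any pair. The log2 difference was 0.51 ± 0.10 (SE, 2 arrays a group), 1.43-fold, with a limma adjusted p of 0.0167. The call did not hold without vehicle array 1 (adjusted p = 0.0971), vehicle array 2 (0.0815) or E2 array 2 (0.097), whereas those of Junb and Fosl2 held without any 1 of the arrays.

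Jun, which can pair with itself or with a Fos protein, was 10.17 and 10.15 with vehicle and 10.34 and 10.47 with E2. Its log2 difference was 0.25 (95% interval 0.05 to 0.44), with a limma adjusted p of 0.151. Its second probe set differed by 0.07. Jund, the member that resting cells express most steadily, was 11.92 and 11.90 against 12.13 and 12.17, a log2 difference of 0.24 with a limma adjusted p of 0.139. For both genes the E2 arrays were the higher ones, but neither difference passed over all probe sets. Fosb, a Fos-family member with a long-lived splice form in brain, was 6.99 and 7.08 against 7.14 and 7.10, a difference of 0.08 (limma adjusted p = 0.757). Fosl1, also known as Fra-1, was 7.21 and 6.77 against 6.83 and 6.90, the only member whose arrays overlapped (limma adjusted p = 0.644). Both lay close to the dim level, where RMA compresses differences.

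**Figure D1:**
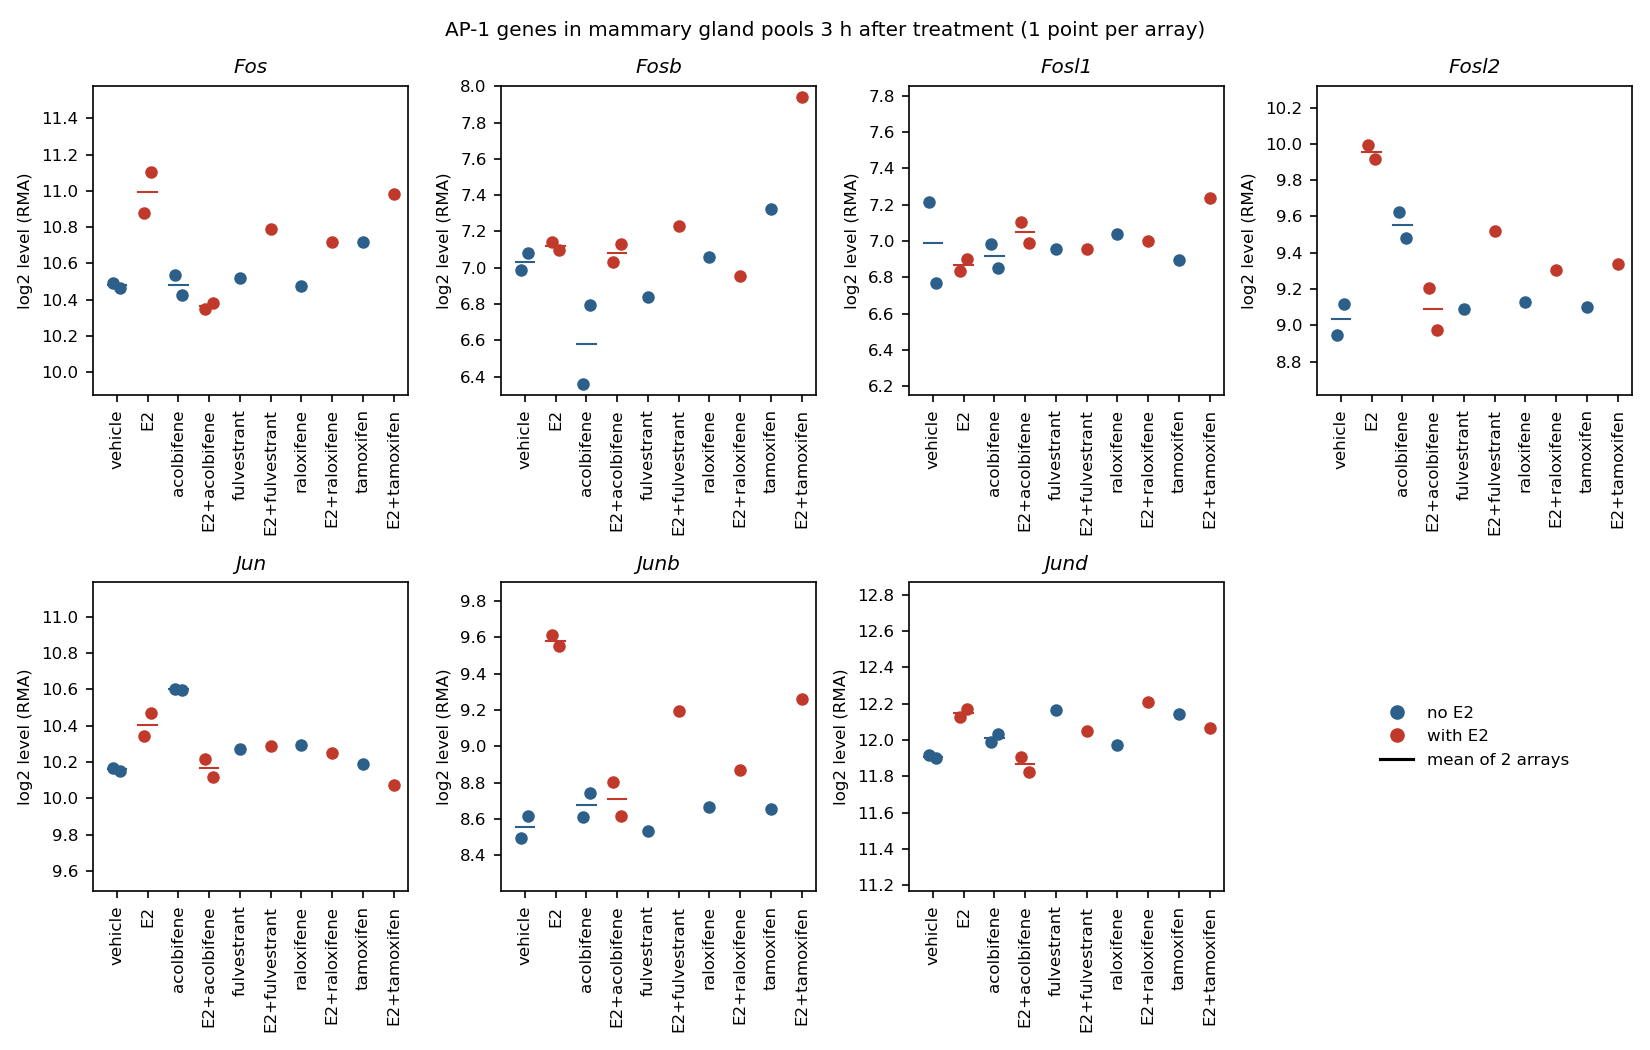
Level of the 7 AP-1 members on each of the 14 arrays (vertical axis, log2 of the deposited RMA value) in the 10 treatment groups (horizontal axis). Each point is 1 array of pooled glands and each bar is the mean of a group with 2 arrays. Junb and Fosl2 are highest in E2, at 9.55 to 9.61 and 9.92 to 9.99.

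With acolbifene given together with E2, the same 3 members, Fos, Fosl2 and Junb, were lower than with E2 alone, and none was higher. Over all probe sets 2.03% were called lower in this comparison. Since the E2 arrays serve in both comparisons, the 2 sets of calls are not independent. Junb measured 8.80 and 8.62 in E2+acolbifene, Fosl2 9.21 and 8.97, and Fos 10.35 and 10.38. All of these lay below both E2 arrays, and Fos lay below both vehicle arrays as well. Junb fell by 0.87 on the log2 scale (SE 0.10, limma adjusted p = 0.00262), Fosl2 fell by 0.86 (SE 0.11, 0.00431) and Fos fell by 0.63 (SE 0.10, 0.0128). Of these, the Fos call was lost without E2 array 2 (adjusted p = 0.0815), E2+acolbifene array 1 (0.0612) or E2+acolbifene array 2 (0.0764). At the second Fosl2 probe set the difference was 0.09 (0.572). Jund and Jun had differences of -0.29 and -0.24 that did not pass (limma adjusted p = 0.0775 and 0.134).

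Against vehicle, E2+acolbifene called 0 of the 7 members (limma; 0 also at an unadjusted p under 0.05), where 0.837% of all probe sets were called and 19.4% had an unadjusted p under 0.05. The log2 differences ran from -0.11 for Fos to 0.15 for Junb. The 95% intervals were -0.33 to 0.10 for Fos, -0.18 to 0.29 for Fosl2 and -0.06 to 0.37 for Junb, so a rise as large as that after E2 lay outside each of them.

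Acolbifene alone called 0 of the 7 members against vehicle (limma; 3 at an unadjusted p under 0.05), where 0.597% of all probe sets were called and 16% had an unadjusted p under 0.05. The 3 were Jun, Fosl2 and Fosb. Jun was 10.60 on both acolbifene arrays, above the 10.17 and 10.15 of vehicle and above both E2 arrays, a log2 difference of 0.44 ± 0.09 (SE, 2 arrays a group) with a limma adjusted p of 0.0533. Its second probe set was 9.59 and 9.60 against 9.29 and 9.30. Fosl2 was 9.63 and 9.48, between vehicle and E2, a difference of 0.52 ± 0.11 (SE) with a limma adjusted p of 0.0607. Fosb was 6.36 and 6.80, its lowest group of the 10, a difference of -0.46 ± 0.13 (SE, limma adjusted p = 0.128) with acolbifene arrays 0.44 apart. Junb and Fos differed from vehicle by 0.12 and 0.00. Jun passed in 3 and Fosl2 in 2 of 11 alternatives, both of them with a trend of variance on level in the test (adjusted p = 0.00329 and 0.00704) and without dim probe sets (0.0264 and 0.0334). Without vehicle array 1 their adjusted p was 0.221 and 0.281. In acolbifene the median of 6 fibroblast markers was 0.20 to 0.33 above vehicle (log2 of their sum 16.03 to 16.06, against 15.77 to 15.83) and that of 6 macrophage markers 0.19 to 0.22 (13.94 to 13.97, against 13.76). Their part in the levels of Jun and Fosl2 was not tested.

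Adding E2 to acolbifene, compared with acolbifene alone, called 3 of the 7 members, against 9.2% of all probe sets called in either direction. Fosb was higher, at 7.03 and 7.13 against 6.36 and 6.80 (log2 difference 0.50, limma adjusted p = 0.0378). Its acolbifene mean of 6.58 lay below the dim level, and the difference ran from 0.28 to 0.72 with 1 array left out. Fosb passed in 5 of 11 alternatives, and missed when the raw-file code was a term (adjusted p = 0.0516). Jun fell by 0.43 on the log2 scale, from 10.60 on both arrays to 10.22 and 10.12 (limma adjusted p = 0.0236), and fell by 0.30 at its second probe set (0.0445). Fosl2 fell by 0.46 (limma adjusted p = 0.0324), with -0.16 at its second probe set (0.245). In this comparison Jun and Fosl2 thus moved opposite to the sign of their E2 minus vehicle differences. Marker medians relative to vehicle differed between these groups too. For fibroblasts they were 0.20 to 0.33 on acolbifene and -0.04 to 0.04 on E2+acolbifene. In the same order they were 0.19 to 0.22 and -0.19 to -0.17 for macrophages and -0.04 to -0.03 and 0.69 to 0.75 for muscle. Those of keratinocytes were -0.26 to -0.17 and 0.23 to 0.29. Their part in the changes of Fosb, Jun and Fosl2 was not tested. After a further quantile normalization all 3 missed the threshold (adjusted p = 0.0880, 0.101 and 0.114 for Fosb, Jun and Fosl2). Without 1 array, at most 1 of the 3 calls held, that of Fosb without acolbifene array 2 (adjusted p = 0.0272).

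The difference between these E2 effects, that with acolbifene minus that without it, was tested as an interaction in the same fit. It was called for 4 of the 7 members, all negative, against 4.47% of all probe sets. The value was -1.39 ± 0.15 for Fosl2 (SE, limma adjusted p = 0.00218), -0.99 ± 0.14 for Junb (0.00743), -0.68 ± 0.12 for Jun (0.0194) and -0.63 ± 0.14 for Fos (0.034). For Junb it was made up of the rise of 1.02 without acolbifene and a difference of 0.03 with it, and for Fos of a rise of 0.51 without and a difference of -0.12 with it. For Fosl2 and Jun the differences with acolbifene were the falls of 0.46 and 0.43 given above. At the second probe sets of Fosl2 and Jun the value was -0.02 (adjusted p = 0.951) and -0.38 (0.0816). The calls of Fosl2 and Junb at the first probe sets held without any 1 array. That of Jun was lost without vehicle array 1, E2 array 2, acolbifene array 1 or E2+acolbifene array 2 (adjusted p 0.0628 to 0.0815). That of Fos held only without E2 array 1 or acolbifene array 2 among the 8 such fits and was lost in the other 6 (0.0692 to 0.117), and it was lost after a further quantile normalization (0.0777). Jund had -0.39 (adjusted p = 0.0807) and Fosb 0.42 (0.171).

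**Figure D2:**
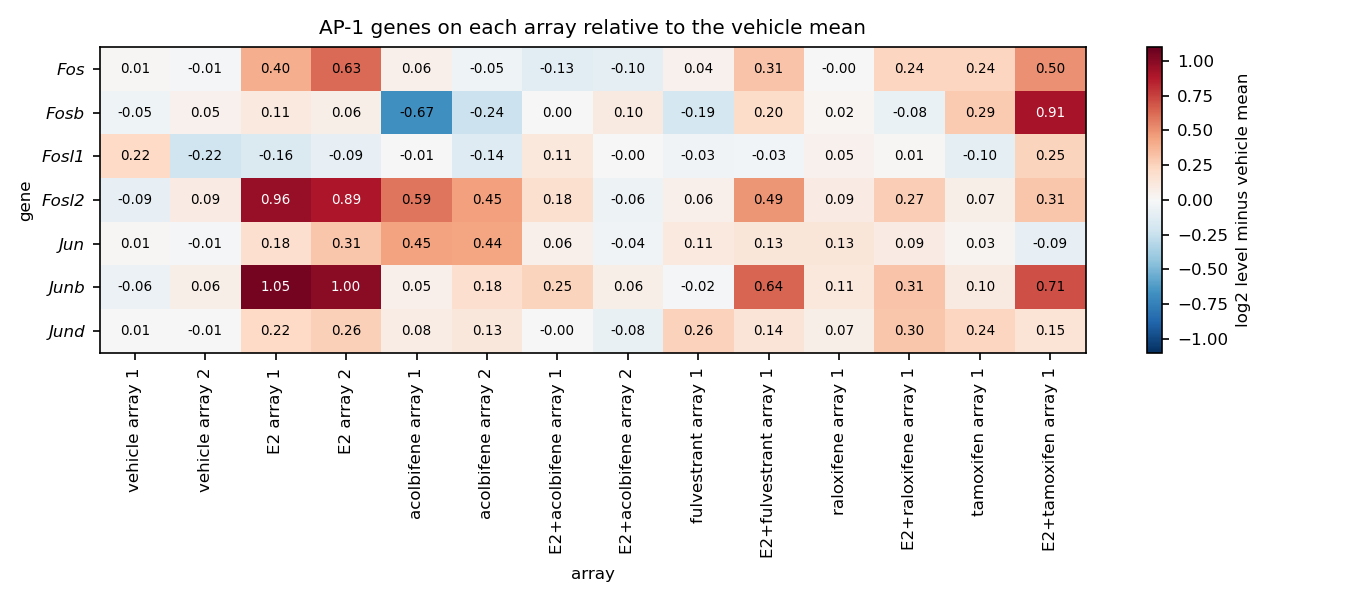
Log2 level of each member (rows) on each of the 14 arrays (columns) minus its mean over the 2 vehicle arrays, as plain differences of deposited values, with red higher and blue lower. The highest cells are Junb and Fosl2 on both E2 arrays (0.89 to 1.05) and Fosb on E2+tamoxifen (0.91), and the lowest is Fosb on acolbifene array 1 (-0.67).

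Fulvestrant, a pure antiestrogen that also removes the receptor, and raloxifene and tamoxifen, which block or activate the receptor depending on the tissue, were each measured on 1 array alone and 1 with E2. These were tested in a model of the 14 arrays that also carries the code of the raw files and takes the spread of a lone array from the pairs. Since only E2 has both codes, E2 array 1 alone stands for E2 in comparisons of a combination with E2. Comparisons of a lone array with vehicle pass through the 2 E2 arrays. In none of these 12 comparisons, nor in the 3 interactions added after the data were seen, was any of the 7 members called.

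With fulvestrant 0 of the 7 members were called in each comparison (limma). Of all probe sets, 0.153% were called for fulvestrant minus vehicle, 0.111% for E2+fulvestrant minus vehicle, 0.0222% for E2+fulvestrant minus E2 and 0.384% for E2+fulvestrant minus fulvestrant. In the same order, 0, 2, 2 and 2 of the 7 members had an unadjusted p under 0.05, as had 5.52%, 5.82%, 4.29% and 7.37% of all probe sets. Junb was 8.53 on fulvestrant and 9.20 on E2+fulvestrant, which is above both vehicle arrays and below both E2 arrays. Fosl2 was 9.09 and 9.52 and Fos 10.52 and 10.79, and the same held for these. The difference between E2+fulvestrant and fulvestrant was 0.66 log2 for Junb (95% interval 0.34 to 0.99, limma adjusted p = 0.148), 0.43 for Fosl2 (0.540) and 0.27 for Fos (0.688). On the fulvestrant array the median of the muscle markers was 0.77 above vehicle, that of the keratinocyte markers -0.08 and that of the lymphocyte markers -0.36. On the E2+fulvestrant array these were -0.05, 1.04 and -0.50, and their part in its levels was not tested.

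With raloxifene 0 of the 7 members were called in each comparison (limma). The shares of all probe sets called were 0.00888% for raloxifene minus vehicle, 0.0666% for E2+raloxifene minus vehicle, 0.0955% for E2+raloxifene minus E2 and 0.0333% for E2+raloxifene minus raloxifene. At an unadjusted p under 0.05 there were 0, 1, 2 and 0 of the 7 members, beside 4.8%, 5.91%, 7.96% and 4.35% of all probe sets. Junb was 8.67 on raloxifene and 8.87 on E2+raloxifene, a difference of 0.20 (95% interval -0.12 to 0.52). The 1.02 of E2 minus vehicle comes from another fit (95% interval 0.81 to 1.24). The direct test of these effects, the interaction, is given below. Fosl2 was 9.13 and 9.31 (difference 0.18) and Fos 10.48 and 10.72 (0.24). E2+raloxifene minus E2 was -0.74 for Junb and -0.69 for Fosl2 (limma adjusted p = 0.174 and 0.276). Jund was highest here of all 10 groups, at 12.21. The E2+raloxifene array had the lowest muscle markers of all, -1.52 against vehicle, and the part of this in its levels was not tested.

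With tamoxifen 0 of the 7 members were called in each comparison (limma). Called among all probe sets were 0.0111% for tamoxifen minus vehicle, 0.0844% for E2+tamoxifen minus vehicle, 0.0133% for E2+tamoxifen minus E2 and 0.18% for E2+tamoxifen minus tamoxifen. An unadjusted p under 0.05 was found for 1, 3, 3 and 2 of the 7 members, beside 4.79%, 8.6%, 14.4% and 9.33% of all probe sets. Fosb was 7.33 on tamoxifen and 7.94 on E2+tamoxifen, the latter above all other arrays, the next being 7.33. Its E2+tamoxifen level exceeded E2 by 0.80 log2 (95% interval 0.38 to 1.23, limma adjusted p = 0.178) and vehicle by 0.87 in the fit (0.414). Junb was 8.65 and 9.26 and Fos 10.72 and 10.98. Fos on E2+tamoxifen thus lay between the E2 arrays, whereas Junb lay below both, and Fosl2, at 9.34, was 0.65 log2 below E2 array 1 (limma adjusted p = 0.185). E2+tamoxifen minus tamoxifen was 0.61 for Junb (adjusted p = 0.213), 0.62 for Fosb (0.353), 0.27 for Fos (0.550) and 0.24 for Fosl2 (0.677). On the E2+tamoxifen array the median of the muscle markers was -0.47 against vehicle, that of the lymphocyte markers -0.46, of 6 endothelial markers -0.36 and of the macrophage markers -0.29, and on the tamoxifen array that of the keratinocyte markers was 0.43. Their part in these levels was not tested. Without the raw-file code in the fit, Fos, Fosb and Junb were called higher in E2+tamoxifen than in vehicle (3 of 7, with 4057 probe sets called in all).

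**Figure D3:**
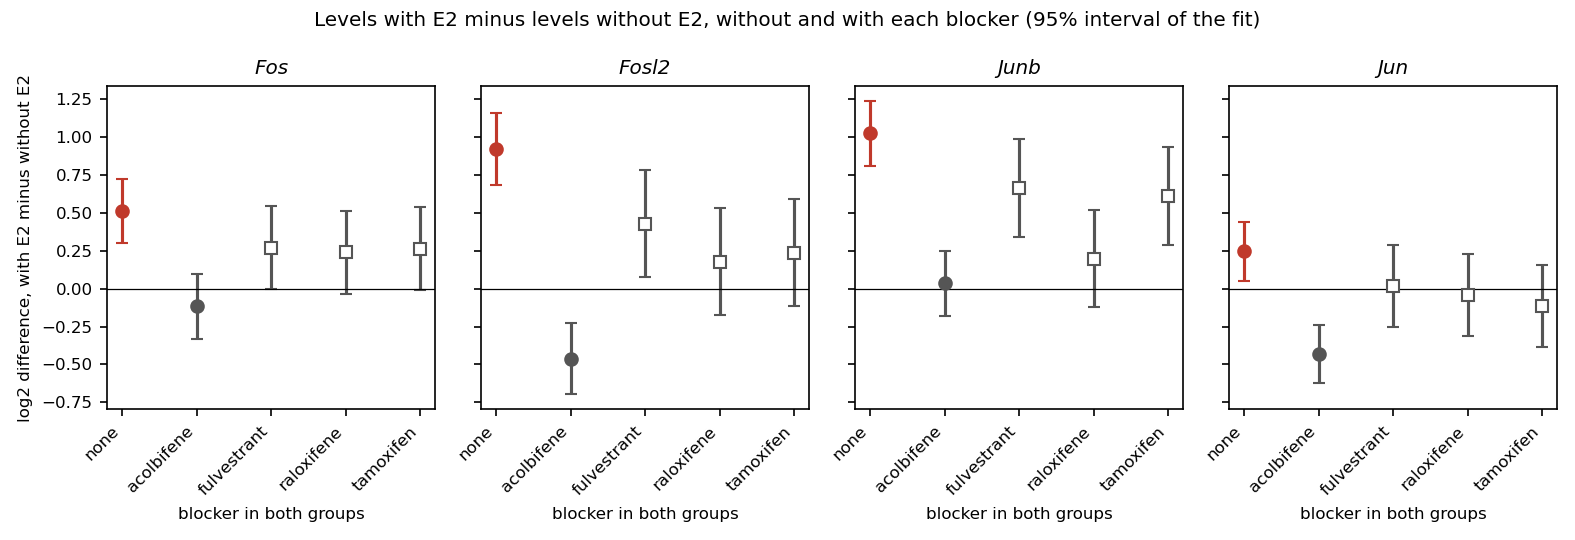
Log2 level with E2 minus the level without E2 (vertical axis) for Fos, Fosl2, Junb and Jun, without a blocker (red) and with each of the 4 blockers in both groups. Points are limma estimates and bars their 95% intervals, from 2 arrays a group for filled circles and 1 for open squares. The circles come from the fit of 8 arrays and the squares from that of 14 arrays with the raw-file code. No test compares circles with squares. For Junb the point is 1.02 without a blocker, 0.03 with acolbifene, 0.66 with fulvestrant, 0.20 with raloxifene and 0.61 with tamoxifen.

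Whether E2 moved a member less with each of these blockers than without was tested by the added interactions, and none of the 7 members passed for fulvestrant, raloxifene or tamoxifen, where 0.158%, 0.0844% and 0.04% of all probe sets were called. At an unadjusted p under 0.05 there were 1, 3 and 2 of the 7 members, beside 7.2%, 7.95% and 12.7% of all probe sets. For Junb the values were -0.33 with fulvestrant (95% interval -0.76 to 0.09), -0.80 with raloxifene (-1.22 to -0.37, limma adjusted p = 0.361) and -0.39 with tamoxifen (-0.81 to 0.04). For Fosl2 they were -0.46, -0.71 and -0.65, and for Fos -0.36, -0.39 and -0.36, in the same order of blockers. At the second Fosl2 probe set they were 0.0018, 0.16 and 0.20, so the sign of the Fosl2 values rests on the brighter one. In this model the E2 effect without a blocker comes from E2 array 2 and the vehicle arrays alone, which all of these values share. With both E2 arrays, in the model without the raw-file code, Fos had -0.24, -0.27 and -0.25. The acolbifene values above come from another fit with both E2 arrays and are not set against these.

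By measured level, at blocker doses that were not known, Junb was highest in E2, then in E2+tamoxifen, E2+fulvestrant, E2+raloxifene, E2+acolbifene, acolbifene, raloxifene, tamoxifen, vehicle and fulvestrant. Only the steps from E2 to E2+tamoxifen (0.32) and from E2+fulvestrant to E2+raloxifene (0.33) were larger than its widest gap within a pair of arrays (0.19). For Fosl2 the one such step was from E2 to acolbifene (0.40). For Jun it was from acolbifene to E2 (0.20), and for Fosb from E2+tamoxifen to tamoxifen (0.62). For Jund the step from tamoxifen to E2+tamoxifen (0.0815) was just wider than its widest gap (0.0809), and the means of its 10 groups spanned only 0.34. For Fos, which ran from 10.99 in E2 to 10.37 in E2+acolbifene, and for Fosl1, no neighbouring groups were further apart than a pair. Levels are compared here within a probe set only.

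The second probe sets gave a check on 4 members. Jun's 2 probe sets were both highest on acolbifene. The second Fosl2 probe set was lowest on E2+fulvestrant (7.68) and highest on acolbifene array 2 (8.15), and its E2 arrays, at 7.86 and 7.84, lay below the vehicle arrays. For Jund and Fosl1 the second probe sets averaged 6.58 and 6.36, below the dim level, and the sign of their E2 minus vehicle differences (-0.15 and 0.07) was opposite to that of the brighter ones.

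**Figure D4:**
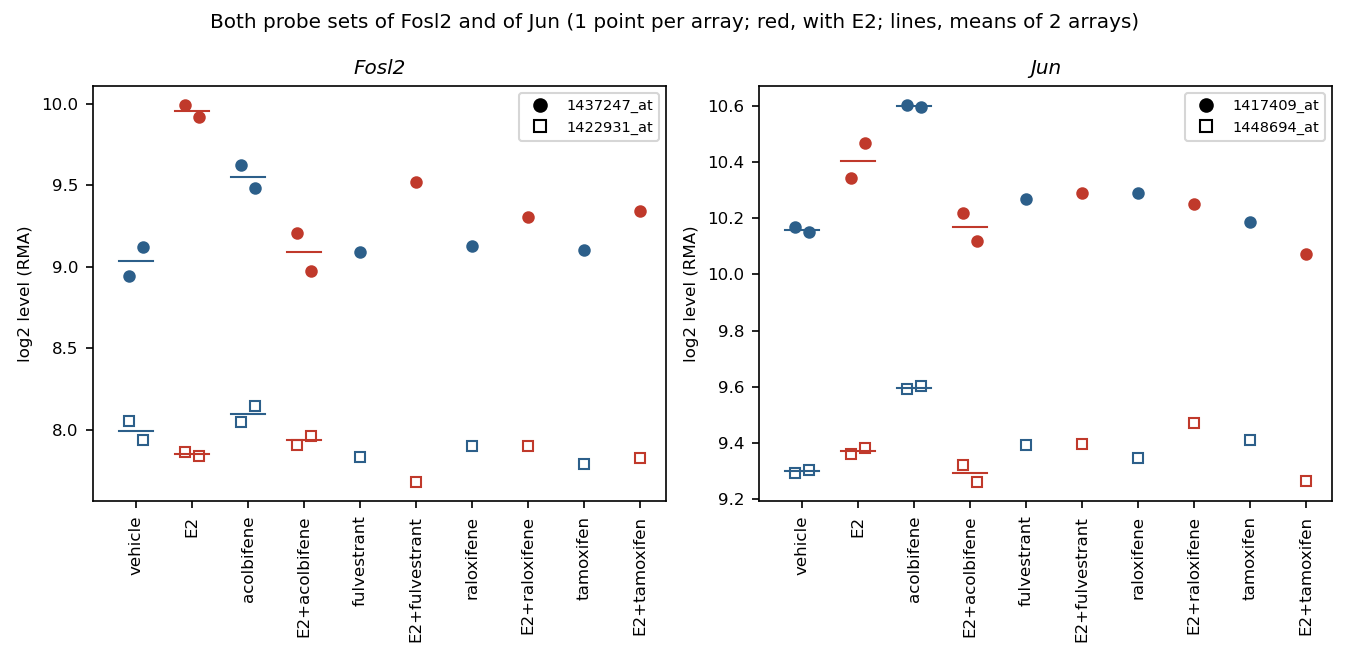
Level (vertical axis, log2 RMA value) of Fosl2 and Jun at the brighter (filled circles) and the second (open squares) probe set on each array, by group (horizontal axis), with groups that received E2 in red and lines at the means of 2 arrays. For Fosl2 the E2 arrays are highest at the first probe set (9.92 to 9.99) and below vehicle at the second, whereas for Jun both probe sets are highest on acolbifene.

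The genes with the most similar pattern were taken as those with the highest Pearson correlation over the 14 arrays, among 13312 genes above the dim level. The points share treatments and arrays, so the values are descriptions. For Junb they were Rbm20 (r = 0.98), Apc (0.97) and Spint1 (0.97), and for Fosl2 they were Spty2d1 (0.96), Ddx21 (0.94) and Dusp6 (0.94). For Jun they were Ppp6r3 (0.96), Bnip3 (0.96) and Hspa5 (0.95). Fos was followed most closely by Inhbb (0.91), a subunit of activin and inhibin, Mad2l1 (0.89) and Bicd2 (0.89). Fosb came nearest to Cyp2c39 (0.91), Rbm46os (0.90) and Kcnip3 (0.90), Jund to Tex30 (0.89), Atrip (0.88) and Frmd4b (0.87), and Fosl1 to 4930505M18Rik (0.88), Slc26a4 (0.86) and Oprl1 (0.86). No gene was among the 3 nearest of more than 1 member.

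The background for the gene lists is that 2.07% of all probe sets were called higher and 1.67% lower after E2, with 19.7% at an unadjusted p under 0.05. In E2+acolbifene against E2, 1.63% were called higher and 2.03% lower, with 24.8% at an unadjusted p under 0.05. Of other bZIP leucine zipper proteins, several of which can pair with Jun or Fos, 23 of 26 listed genes were measured and 1 was called after E2. This was Jdp2, the Jun dimerization protein, which binds Jun and represses AP-1 sites. Jdp2 was 8.40 and 8.25 with vehicle and 9.65 and 9.64 with E2, a rise of 1.32 ± 0.10 log2 (SE, limma adjusted p = 3.9e-05); in size this was above the 1.02 of Junb. It fell by 0.92 in E2+acolbifene against E2 (0.00185). Jdp2 was also called higher (limma) in E2+fulvestrant than in fulvestrant (9.51 against 8.45) and in E2+tamoxifen, at 9.73, than in vehicle, comparisons in which none of the 7 members passed. The median over the list was 0.04 log2 after E2, with -0.02 over all probe sets. Of the 20 measured regulators upstream of AP-1 (28 listed: MAP kinases, their activators, and the factors that switch Fos on), 0 were called higher after E2 (limma; 1 at an unadjusted p under 0.05) and 1 lower, Mrtfa, a coactivator of serum response factor (-0.35, limma adjusted p = 0.0469), with a list median of -0.06.

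Of 18 feedback inhibitors, which shut off MAP kinases or degrade immediate-early RNAs, all measured, 4 rose after E2 and 0 fell (limma; 0 lower at an unadjusted p under 0.05), with a list median of 0.10. They were Spred1 (0.53 log2), the ERK phosphatase Dusp6 (0.52), the stress kinase phosphatase Dusp1 (0.47) and Zfp36 (0.41), which destabilizes AU-rich mRNAs. In E2+acolbifene against E2, Dusp6 fell by 0.55 and Zfp36 fell by 0.34, and none was higher at an unadjusted p under 0.05 either. Dusp1 was also higher on acolbifene alone (0.45 log2, limma adjusted p = 0.0473), and its 4 values of 11.25 to 11.36 on the acolbifene and E2 arrays were close together.

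Of 30 textbook AP-1 targets 28 were measured, and 3 rose after E2 and 0 fell (limma; 9 higher and 2 lower at an unadjusted p under 0.05), with a list median of 0.09. They were Mt2, a metallothionein (1.40 log2), Hmox1, heme oxygenase (1.19), and Cdkn1a, the cell cycle inhibitor p21 (1.04), each of which also has other regulators. In E2+acolbifene against E2, 5 of the 28 were lower: Mt2 fell by 0.80, Hmox1 fell by 0.69, the chemokine Ccl2 fell by 0.64, Cdkn1a fell by 0.47 and Vegfa fell by 0.40. None passed as higher, with 4 at an unadjusted p under 0.05. Acolbifene alone raised Hmox1 (1.00), Cdkn1a (0.83) and Timp1 (0.69), so the first pair rose with E2 and with acolbifene. But Mt2, Hmox1 and Cdkn1a lay above both vehicle arrays on all 12 arrays of the other groups, with lowest values of 11.06, 9.37 and 10.17 against highest vehicle values of 10.57, 8.92 and 9.87. Of all probe sets 2.48% showed this. It held for 4 of the 28 targets, the other being Il6, which lay below the dim level on all 14 arrays, for Spred1 and Zfp36 of the feedback inhibitors, for Jdp2, and for 0 of the 7 members. Beside a share of 2.48%, the 0 of 7 does not set the members apart. Jun and Jund lay above both vehicle arrays on 10 of the 12 arrays, Fosl2 and Junb on 9 and Fos on 8. Fosb did so on 6 and Fosl1 on 1. For Fosl2 the vehicle mean was the lowest of the 10 groups. E2 array 1 exceeded E2 array 2 by a wide margin for Mt2 (12.29 against 11.57) and Hmox1 (10.42 against 9.78), a gap that Junb and Fosl2 did not show.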

How the data were processed

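Expression was measured in pooled mammary glands on 14 Affymetrix arrays. The log2 values are those the authors deposited. Per the submitters' processing notes they come from RMA, with no version given. RMA corrects background, normalizes quantiles across arrays and summarizes probes, which compresses weak signals. The design text names another array, but the 45101 probe sets are those of the Mouse Genome 430 2.0 array, and genes were named through its platform annotation (34945 probe sets with 1 symbol, 932 with several, 9160 unnamed here). The 64 control probe sets were left out of the tests.

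Groups follow the treatment in the labels. Tests used lmFit and eBayes of limma 3.58.1 (R 4.3.3). P-values were adjusted after Benjamini-Hochberg across the whole set of 45037, with a threshold of 0.05. The 6 comparisons among replicated groups used 8 arrays and no covariate. The 12 with an unreplicated array used 14 arrays with the raw-file code, as did 3 interactions added after seeing the data. Precision is limited by how few arrays there are. The fit was first tested on simulated data with 100 added changes of 1 log2. Of these, 84 were called for E2 minus vehicle and 56 for E2+tamoxifen minus tamoxifen, a comparison of lone arrays. A member that was not called on a lone array can thus still have changed.

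Members, gene lists, tests and alternatives were chosen with earlier results of these data known. Named genes are the 7 members, the 3 nearest genes of each by correlation, and list genes called in E2 minus vehicle or E2+acolbifene minus E2, with Jdp2, Il6 and the acolbifene calls of the same lists chosen or followed further after their values were seen. Alternatives were leaving out each array, the replicate number as a block, the raw-file code, a variance trend, a filter on dim probe sets, a further quantile normalization, a shift to one median and the second probe sets. Protein sequences and scanner files were not used here. The dose of E2 is left out, as the labelled unit is doubtful.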

Additional observations from a re-analysis of the deposited data

Results flagged for a closer look

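The change with E2 differed between glands with and without acolbifene for 4 members, by the interaction test of that difference. The value was -1.39 log2 for Fosl2, -0.99 for Junb, -0.68 for Jun and -0.63 for Fos (limma, 2 arrays a group, adjusted p = 0.00218, 0.00743, 0.0194 and 0.034). Junb and Fos rose with E2 alone and were near the vehicle level with E2 and acolbifene. Jun passed in this test without passing for E2 against vehicle, and its level was highest on acolbifene alone, at 10.60 on both arrays. At the second probe set of Jun the value was -0.38 (adjusted p = 0.0816), and at that of Fosl2 it was -0.02 (0.951). No group had enough arrays for a test of single arrays that stand apart.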

How the results depend on the processing

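E2 minus vehicle and E2+acolbifene minus E2 kept their directions and their 3 called members at the main probe sets in every alternative that used all arrays of the replicated groups. Jund passed as well in 1 alternative for E2 minus vehicle and in 3 for E2+acolbifene minus E2. The calls of Junb and Fosl2, there and in the acolbifene interaction, were kept in all alternatives at the main probe set, and adjusted p reached at most 0.0468. Fos lost its calls in several fits with 1 array left out, as given above.

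At the other probe sets directions turned. For Fosl1 E2 minus vehicle became 0.069. For Jund E2 minus vehicle became -0.15, E2+acolbifene minus E2 0.24 and the acolbifene interaction 0.28. For Fosl2 E2 minus vehicle became -0.15, E2+acolbifene minus E2 0.087, E2+fulvestrant minus fulvestrant -0.16, E2+raloxifene minus E2 0.035 and the interactions 0.0018 with fulvestrant, 0.16 with raloxifene and 0.20 with tamoxifen. Of these, 2 were called at the main probe set, Fosl2 for E2 minus vehicle and for E2+acolbifene minus E2. Fosl1 E2 minus vehicle ran from -0.35 to 0.10 with 1 array left out, turning sign without vehicle array 1.

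With 1 array left out, the number of members called was 2 to 5 for the acolbifene interaction and 0 to 1 for E2+acolbifene minus acolbifene. Probe sets called ranged from 430 to 941 for E2 minus vehicle, 27 to 64 for acolbifene minus vehicle, 116 to 284 for E2+acolbifene minus E2, 34 to 65 for E2+acolbifene minus vehicle, 38 to 969 for E2+acolbifene minus acolbifene and 186 to 1444 for the acolbifene interaction. They ranged from 12 to 13 for E2+fulvestrant, 7 to 8 for E2+raloxifene and 14 to 18 for E2+tamoxifen, each minus vehicle, and from 25 to 71, 22 to 38 and 3 to 18 for the fulvestrant, raloxifene and tamoxifen interactions. Fewer arrays were fitted in these.

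The replicate number does not pair the arrays: deviations of same-numbered arrays correlated at -0.12 to 0.12 between groups. With the replicate block 1002 probe sets were called for E2+acolbifene minus E2, 2303 for E2+acolbifene minus acolbifene and 1193 for the acolbifene interaction, and 3, 3 and 4 members, the same counts as without it.

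When the model held the code of the raw files, for 8 or for 14 arrays, 479 were called for E2 minus vehicle, 284 for E2+acolbifene minus E2 and 1113 for the acolbifene interaction. Without it in 14 arrays, fulvestrant, raloxifene and tamoxifen minus vehicle called 153, 90 and 74, E2+fulvestrant minus vehicle 717 (1 member), E2+raloxifene minus vehicle 514, E2+raloxifene minus E2 85 (1 member), E2+raloxifene minus raloxifene 2, E2+tamoxifen minus vehicle 4057 (3 members), E2+tamoxifen minus E2 1453 (2 members) and the fulvestrant and raloxifene interactions 33 and 24.

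With a variance trend on level more was called throughout. The counts were 2720 for E2 minus vehicle, 1437 for acolbifene minus vehicle (2 members), 3030 for E2+acolbifene minus E2, 1733 for E2+acolbifene minus vehicle, 7219 for E2+acolbifene minus acolbifene and 4176 for the acolbifene interaction. For fulvestrant, alone and with E2 minus vehicle, they were 232 and 296 (1 member), for E2+fulvestrant minus E2 88 and minus fulvestrant 727 (1 member). For raloxifene the same were 116, 267, 381 (2 members) and 72, and for tamoxifen 96, 443 (1 member), 650 (2 members) and 737 (1 member). The interactions gave 408, 281 (1 member) and 960.

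Without dim probe sets acolbifene minus vehicle called 706 (2 members), E2+acolbifene minus vehicle 630, E2+fulvestrant minus E2 18 and minus fulvestrant 270, raloxifene minus vehicle 13, E2+raloxifene minus E2 94, tamoxifen minus vehicle 13, E2+tamoxifen minus vehicle 73 and the raloxifene and tamoxifen interactions 60 and 39. Shifting arrays to one median gave 1 member for acolbifene minus vehicle (Jun), 2529 probe sets for E2+acolbifene minus E2 and 3153 for the acolbifene interaction. A further quantile normalization gave 1034 for E2+acolbifene minus E2, 1141 for E2+acolbifene minus acolbifene (0 members), 1114 for the acolbifene interaction, 11 for E2+raloxifene minus vehicle, 0 for E2+tamoxifen minus E2 and 4 for the tamoxifen interaction. The cause of these shifts was not tested. Without dim probe sets fewer than 45037 were tested, so those counts have a smaller base than the others. Signals near the dim level, as of Fosb and Fosl1, limit what can be read from them.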
